A study of Bos taurus with 36 samples.

Results

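Liver gene expression 3 h after lipopolysaccharide (LPS) had been infused into the udder was set against the expression in liver biopsies taken at -22 h, before the infusion. The cows were Holstein-Friesians that had calved for the first time between 9 and 12 weeks earlier. At hour 0, 200 microgram of E. coli LPS (serotype 0111:B4) dissolved in 10 ml of 0.9% NaCl went into the right front udder gland of each cow, and NaCl alone into the left front gland. The 3 h group held 4 arrays, from cows 1, 3, 7 and 8, and the -22 h group held 8 arrays, 1 from each of cows 1 to 8, out of 36 arrays in the series. Cows 1, 3, 7 and 8 gave a biopsy at both hours, so that 4 changes within a cow could be read as well. No saline-infused cow was among the arrays. The paper reports a separate control study of saline-infused cows, which saw no effect of biopsy sampling on clinical measures or on selected genes. The biopsies compared here were 25 h apart. LPS and anything else that differed between those hours cannot be told apart. All 24128 probe sets of the Affymetrix bovine array were tested, of which 13292 named 1 gene. They were read as 9155 genes, each through the brightest of its probe sets.

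LPS is the cell wall component by which Gram-negative bacteria are sensed, through LBP, CD14 and TLR4. In the liver, Kupffer cells and hepatocytes answer such signals, and cytokines such as IL-1 and IL-6 that arrive with the blood, through the transcription factors NF-kappaB, AP-1, STAT3 and C/EBP. The first genes to move are regulators whose mRNA is short-lived, and the secreted acute phase proteins follow, while parts of the metabolic programme of the hepatocyte are turned down.

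Values are given on a log2 scale on which 1 unit is a 2-fold difference. Changes are the mean at 3 h (n = 4) minus the mean at -22 h (n = 8), with the standard error (SE) of the limma fit. A gene is said to have risen or fallen where the Benjamini-Hochberg-adjusted p of that fit was below 0.05. Of the -22 h arrays, those of cows 1 and 7 stood apart from the other 6. The array of cow 7 had the lowest median log2 value (4.15, against 4.28 to 4.37 in the other -22 h arrays) and the highest mean of 18 bacterial hybridization controls (13.4, against 11.0 to 11.7). The array of cow 1 held the highest -22 h value in 51.3% of the genes that were higher at 3 h and in 20.1% of all genes. For the array of cow 7 these shares were 6.85% and 26.4%. Both were kept. The number of changed probe sets and the changes of MT1A, MT2A, LBP and HP are given with and without them. None of the called genes given below lost its call without them.

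At 3 h, 1423 of 24128 probe sets had changed (5.9%), 844 of them higher and 579 lower. Of the changed probe sets, 571 named no single gene. Read by gene, 644 of 9155 had changed (7.03%). This divides into 409 genes that rose (4.47%) and 235 that fell (2.57%). Under the study's stricter threshold, a Bonferroni-adjusted p below 0.01, 263 probe sets were called (1.09%), of which 217 were higher and 46 lower. The number of changed probe sets was 938 when all arrays of cow 8 were left out. It was 335 when only the 8 arrays of the 4 cows with both hours were fitted as pairs.

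Rises were larger than falls. The median change was 1.17 among genes that rose and -0.69 among genes that fell, beside -0.02 over all 9155 genes. A rise of at least 3 log2 units was seen in 62 genes, and a fall of that size in 4 genes, namely IHH, THRSP, ID3 and CYP7A1. Of the 409 genes that rose, 380 were higher at 3 h in 4 of 4 cows, and in 256 the lowest 3 h value lay above all 8 values at -22 h. Of the 235 genes that fell, 206 were lower in 4 of 4 cows, and 118 had no overlap between the groups. Over all 9155 genes, whether called or not, 971 (10.6%) were higher and 1070 (11.7%) lower in 4 of 4 cows, and the 3 h values lay above all -22 h values in 308 (3.36%) and below them in 189 (2.06%).

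**Figure D1:**
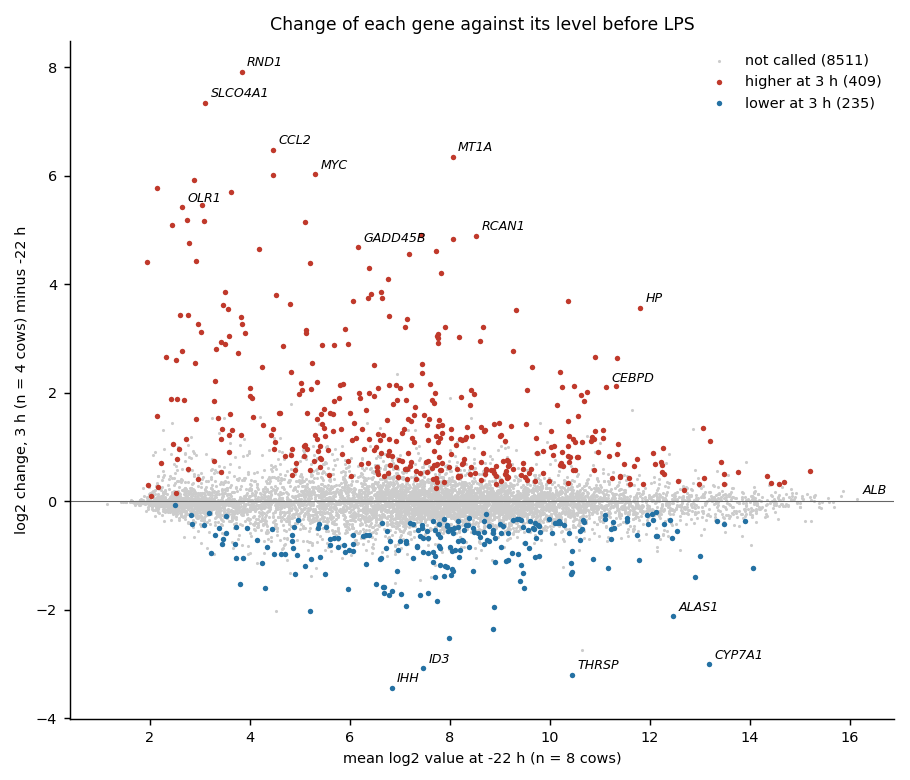
Log2 change of each of 9155 genes (3 h mean of 4 cows minus -22 h mean of 8 cows, vertical axis) against its mean log2 value at -22 h (horizontal axis), with 409 genes called higher in red, 235 called lower in blue and the rest in grey. RND1, SLCO4A1 and CCL2, with the 3 largest rises, had mean values below 5 at -22 h, while the 4 genes that fell by at least 3 units, IHH, ID3, THRSP and CYP7A1, had mean values above 6 there.

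The largest rise of all was that of RND1, a small GTPase that loosens the actin cytoskeleton. RND1 read 11.98, 11.84, 11.46 and 11.75 at 3 h in cows 1, 3, 7 and 8, against a lowest, median and highest value of 2.69, 3.96 and 4.84 at -22 h. The 3 h values lay within 1 unit of each other and far above every earlier value. The change was 7.92 ± 0.37 (SE, adjusted p = 2.6e-16). It was 8.16 at 6 h and 0.46 at 48 h. OLR1, the scavenger receptor for oxidized low density lipoprotein, read 7.38, 8.38, 8.06 and 8.44 at 3 h, against 2.54 to 2.88 at -22 h, a change of 5.42 ± 0.81 (adjusted p = 1.9e-05). For OLR1 and the other genes near the bottom of the scale at -22 h, the change is a lower bound, since the array does not resolve lower levels. Of the 62 rises of at least 3 units, 21 were in genes that no -22 h array had above 5. RCAN1, the inhibitor of calcineurin, lay in the middle of the scale at -22 h (7.84 to 8.94) and read 13.27, 13.12, 13.31 and 14.02 at 3 h, a change of 4.90 ± 0.33 (adjusted p = 2.1e-12).

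**Figure D2:**
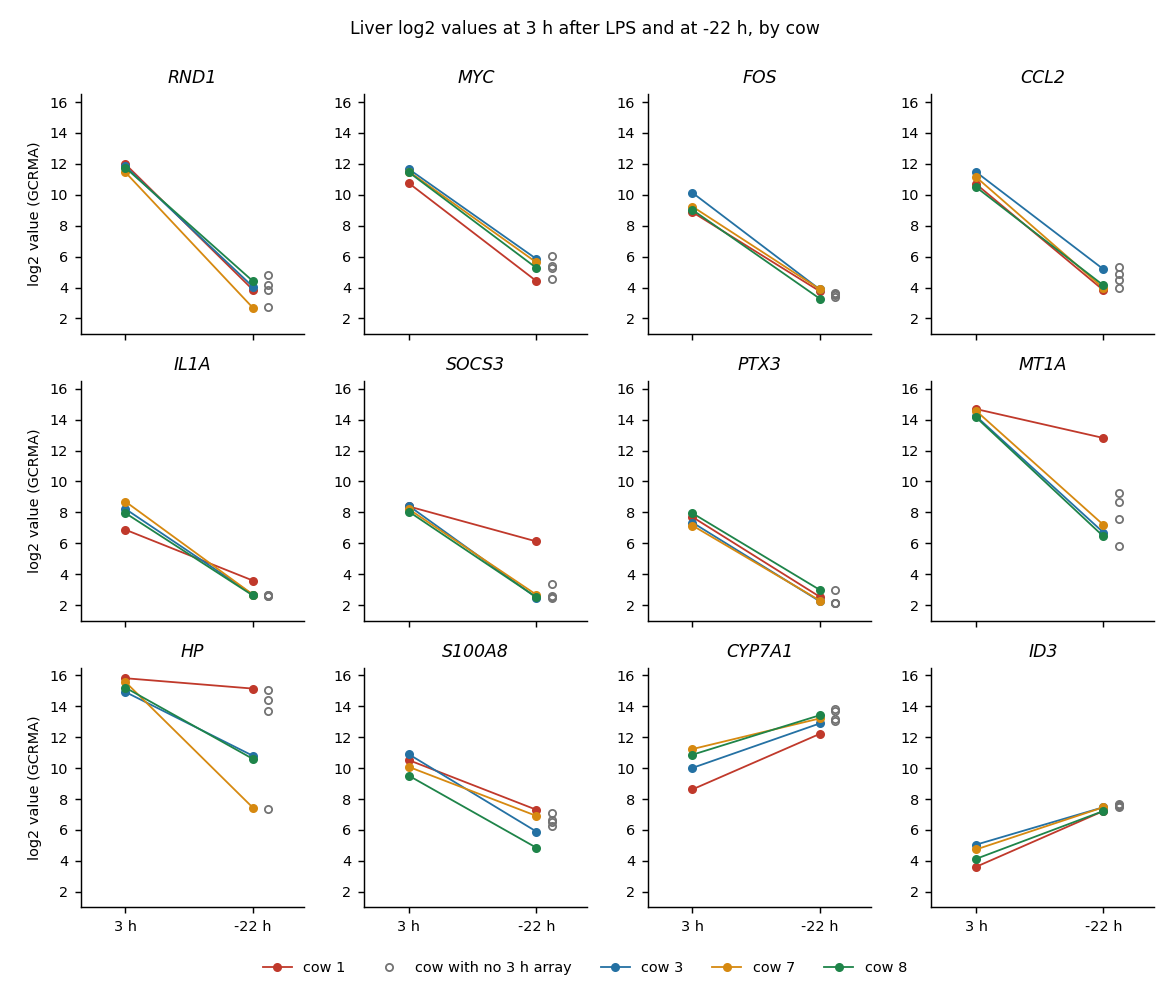
Log2 values of 12 genes at 3 h (left) and -22 h (right) in each panel, with the 4 cows sampled at both hours joined by coloured lines and the 4 cows with no 3 h array as open circles. RND1, MYC, FOS and CCL2 were separate between the hours in every cow, whereas SOCS3, MT1A and HP had a high -22 h value in cow 1.

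Immediate early transcription factors, which are induced from existing signalling proteins without new protein synthesis, were among the genes that rose most. Of 19 measured, 11 rose and 1 fell, and the median change was 0.93. MYC, a driver of cell growth, read 10.75, 11.65, 11.50 and 11.45 at 3 h, against 4.42, 5.34 and 6.03 (lowest, median, highest) at -22 h, a change of 6.04 ± 0.41 (adjusted p = 2.1e-12). The AP-1 subunit FOS read 8.87, 10.13, 9.23 and 9.02 at 3 h, against 3.27, 3.62 and 3.89 at -22 h (5.69 ± 0.59, adjusted p = 2.1e-08). EGR1, a zinc finger factor, read 8.77 in cow 1 and 10.78 to 11.21 in the other 3 cows at 3 h, against 2.80, 4.55 and 6.41 at -22 h. None of these 3 genes overlapped between the groups. The change of EGR1 was 6.02 ± 0.85 (adjusted p = 6.4e-06) through its brightest probe set, while its second probe set gave -0.01.

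The other called members changed by less. ATF3, a stress-induced repressor, rose by 4.57 ± 0.41, and the AP-1 subunits JUNB and JUN by 4.30 ± 0.32 and 3.02 ± 0.28 (adjusted p = 9.7e-10, 1.9e-11 and 1.9e-09), although the other 4 probe sets of JUN ranged between 0.00 and 3.88. The small Maf protein MAFF rose by 2.23 and the early response gene IER3 by 1.87, while MAFG, another small Maf protein, fell by 0.84 ± 0.20 (adjusted p = 0.0059). BHLHE40, a repressor that also acts in the circadian clock, read 11.44 to 11.79 at 3 h and 8.74 to 10.03 at -22 h, a change of 2.06 ± 0.37 (adjusted p = 0.00024). In the KLF and GATA families, 1 of 8 members rose and 2 fell. KLF10 rose by 1.30 (adjusted p = 0.0091), a call lost without cow 3 (adjusted p = 0.091) or without its 3 h array alone (0.055), and KLF11 fell by 1.08 ± 0.25 (adjusted p = 0.0054).

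NF-kappaB is held in the cytoplasm by inhibitors that are themselves among its targets. Of 26 measured subunits, inhibitors and adaptors, 13 rose and 1 fell. The inhibitor NFKBIA read 12.14, 12.01, 12.04 and 11.99 at 3 h, against 7.25, 7.81 and 8.48 at -22 h, a change of 4.22 ± 0.29 (adjusted p = 3.9e-12). The 4 cows differed by less than 0.2 units at 3 h. NFKBIE, a second inhibitor, read 6.05 to 6.40 at 3 h and 2.85 to 3.19 at -22 h (3.27 ± 0.32). BCL3, a nuclear inhibitor family member, rose by 3.80 ± 0.26, and the subunits NFKB2 and NFKB1 by 3.05 ± 0.42 and 2.08 ± 0.25 (adjusted p = 3.1e-12, 3.9e-06 and 3.2e-07). TRAF1, an adaptor of tumour necrosis factor receptors, rose by 1.60 ± 0.15. The sensors moved less. CD14, the LPS co-receptor, rose by 0.65 ± 0.16 (adjusted p = 0.0072), with 12.16 to 12.40 at 3 h and 11.22 to 11.99 at -22 h. TLR4, the LPS receptor, changed by 0.89 ± 0.41 (adjusted p = 0.25), TLR2 by 0.80 ± 0.40 (0.30) and the adaptor MYD88 by 0.18 ± 0.19 (0.62), and none of the 3 passed the test.

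Among inflammatory cytokines and growth factors, 8 of 28 rose and 1 fell. IL1A read 6.88, 8.22, 8.70 and 7.95 at 3 h, against 2.57, 2.64 and 3.59 at -22 h (5.19 ± 0.38, adjusted p = 1.3e-11), and IL1B read 8.17, 9.07, 9.28 and 8.78 at 3 h, against 3.58, 4.24 and 4.52 at -22 h (4.65 ± 0.26, adjusted p = 3.7e-14). Both encode the agonists of the IL-1 receptor, and both were separate between the groups in every cow. CSF1, the growth factor of macrophages, rose by 2.88 ± 0.27 (adjusted p = 2.7e-09), and its second probe set gave 0.30. INHBA, a subunit of activin, rose by 2.55 ± 0.69 (adjusted p = 0.020). That call was lost without cow 6 (0.051) or cow 7 (0.11), and without the 3 h array of cow 7 (0.075) or of cow 8 (0.15), and it was not made with the 12 arrays of both hours (0.075). IL10, which limits inflammation, read 2.80 and 3.00 at 3 h in cows 1 and 3, and 4.21 in both cows 7 and 8, against 2.53 to 2.67 at -22 h. Its change of 0.97 ± 0.26 (adjusted p = 0.018) was not called without cow 7 (0.20) or cow 8 (0.14), nor without the 3 h array of either (0.14 in both cases), nor with the 12 arrays of both hours (0.0502). TNF read 2.31, 2.85, 2.42 and 2.31 at 3 h, against 2.26 to 2.34 at -22 h, and did not pass (0.16 ± 0.06, adjusted p = 0.10). Without the 3 h array of cow 1, or of cow 8, its adjusted p was 0.031. IL6 read 2.40 to 2.61 at 3 h and 2.44 to 2.70 at -22 h. TNF and IL6 lay near the bottom of the scale at both hours, where a change in their mRNA could not be read.

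Receptors and antagonists of cytokines gave 7 rises and no fall among 24 measured. IL1RN, the antagonist that blocks the IL-1 receptor, read 10.61, 10.13, 10.83 and 10.33 at 3 h, against 6.46, 6.52 and 7.03 at -22 h (3.85 ± 0.36, adjusted p = 1.9e-09). The signalling receptor IL1R1 rose by 1.32 ± 0.25 (adjusted p = 0.00059), with within-cow changes of 0.14 in cow 1 and 0.97 to 1.62 in the other 3. With the 12 arrays of both hours alone its adjusted p was 0.081. IFNAR1, a chain of the type I interferon receptor, rose by 2.08 ± 0.45 (adjusted p = 0.0024, and 0.077 with the 12 arrays), and TNFRSF1A, the main receptor of tumour necrosis factor, by 0.65 ± 0.14 (adjusted p = 0.0017).

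Of 26 chemokines measured, 10 rose and none fell. CCL2, which attracts monocytes, read 10.70, 11.47, 11.15 and 10.50 at 3 h, against 3.83, 4.31 and 5.32 at -22 h (6.48 ± 0.72, adjusted p = 7.7e-08). CCL8, which acts on monocytes too, read 7.89, 8.37, 8.53 and 9.26 at 3 h, against 2.44, 2.90 and 3.74 at -22 h (5.47 ± 0.37, adjusted p = 2.5e-12). CCL4 and CCL3, which attract macrophages and T cells, rose by 5.15 ± 0.63 and 4.39 ± 0.49 (adjusted p = 4.7e-07 and 1.1e-07), while the other 2 probe sets of CCL3 gave -0.02 and 1.52. The 3 h values of CCL2, CCL8, CCL4 and CCL3 lay above all of their -22 h values. CCL20, the ligand of CCR6, rose by 4.41 ± 0.37 (adjusted p = 2.3e-10).

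Of GRO1, CXCL2, CXCL3, CXCL5 and CXCL8, chemokines that attract neutrophils, all but CXCL2 rose. CXCL2 changed by 1.32 ± 0.75 (adjusted p = 0.40). CXCL8 read 6.51 to 7.72 at 3 h and 2.58 to 4.01 at -22 h (3.62 ± 0.74, adjusted p = 0.0015). CXCL3 read 6.90, 7.85, 7.23 and 7.47 at 3 h, against 6.91 in cow 1 and a median of 2.99 at -22 h. CXCL3 thus did not differ between the hours in cow 1 (0.00), while it was higher by 4.84, 4.25 and 4.71 in cows 3, 7 and 8 (3.86 ± 0.44 in the fit, adjusted p = 1.5e-07). GRO1, the symbol of the array for a CXCL1-type chemokine, read 12.45 to 12.68 at 3 h and 9.56, 10.03 and 11.79 at -22 h, with the highest value again in cow 1 (2.38 ± 0.29, adjusted p = 4.3e-07). Its other 3 probe sets gave changes between 4.70 and 7.75. CXCL5 rose by 2.56 ± 0.64 (adjusted p = 0.010), a call lost without cow 1 (0.066) or its 3 h array (0.095).

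Of 15 prostaglandin and leukotriene genes, 1 rose and 1 fell, and these were the 2 cyclooxygenases. PTGS2, the inducible enzyme, read 8.65, 8.65, 8.86 and 9.09 at 3 h, against 2.62, 2.81 and 3.28 at -22 h (5.92 ± 0.71, adjusted p = 3.6e-07), and its other 2 probe sets gave 5.64 and -0.02. PTGS1, the constitutive enzyme, read 6.13, 6.47, 7.23 and 6.75 at 3 h, against 7.00, 7.88 and 8.52 at -22 h, and was lower in 4 of 4 cows (-1.16 ± 0.34, adjusted p = 0.033). The PTGS1 groups overlapped, and the adjusted p was 0.076 with the cow as a replicate block. It was 0.060 to 0.10 without cow 1, 2, 3, 4, 6 or 8, 0.067 to 0.16 without the 3 h array of cow 1, 3 or 8, and 0.054 to 0.065 without the -22 h array of cow 2, 4, 5 or 6. With the 12 arrays of both hours it was 0.058.

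Suppressors of cytokine signalling were among the genes that rose. Of 13 measured JAK-STAT and SOCS genes, 6 rose and none fell. SOCS3, which shuts off signalling from the IL-6 receptor, read 8.38, 8.42, 8.20 and 8.04 at 3 h, against 6.12 in cow 1 and a median of 2.54 at -22 h (5.17 ± 0.49, adjusted p = 2.5e-09). CISH, which restrains STAT5, read 10.22 to 10.79 at 3 h and 6.72, 6.95 and 8.37 at -22 h (3.36 ± 0.27, adjusted p = 1.0e-10). The kinase PIM1 read 10.67, 11.07, 11.09 and 10.65 at 3 h and 5.64, 6.39 and 9.89 at -22 h (4.11 ± 0.50, adjusted p = 4.4e-07). In all 3 genes the highest -22 h value was that of cow 1, and the groups did not overlap. STAT3 itself rose by 1.19 ± 0.23 (adjusted p = 0.00078), with 11.67 to 12.35 at 3 h and 9.98 to 12.23 at -22 h. The mean of its probe sets gave 1.29 without passing the test (adjusted p = 0.12), and with the 12 arrays of both hours the adjusted p was 0.083. None of 24 interferon-stimulated genes was called by limma, and 1 of them had an unadjusted p below 0.05. Their median change was 0.33. Their summed level ran from 12.53 to 14.29 in log2 at 3 h and from 12.05 to 15.19 at -22 h, a spread that limits what the test could call. Interferon-inducible chemokines were counted with the chemokines, and the rises there included such a chemokine. The absence of calls thus holds for the 24 genes of this list, not for every interferon-inducible gene. When the probe sets of each gene were averaged, 1 of the 24 was called.

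Of 18 factors that control the decay of mRNAs, 4 rose and 4 fell, with a median change of 0.01. ZFP36, which marks mRNAs with AU-rich elements for decay, read 12.15, 12.68, 12.30 and 12.17 at 3 h, against 6.44, 7.33 and 8.80 at -22 h (4.91 ± 0.32, adjusted p = 1.0e-12). ZC3H12A, an RNase that cleaves cytokine mRNAs, rose by 3.12 ± 0.29, and BTG1, which recruits the deadenylase, by 1.85 ± 0.22 (adjusted p = 2.3e-09 and 2.8e-07). TOB1, a relative of BTG1, fell by 1.34 ± 0.17 (adjusted p = 1.8e-06), with 8.84 to 9.54 at 3 h and 10.10 to 10.61 at -22 h. Of 22 survival and death genes, 5 rose and none fell. The 5 were GADD45B, a stress-induced regulator of MAP kinase signalling (4.68 ± 0.51), BIRC3, an inhibitor of apoptosis (3.52 ± 0.40), BCL2A1 and MCL1, relatives of BCL2 that block cell death (3.11 ± 0.56 and 1.21 ± 0.23), and CFLAR, which blocks caspase 8 (1.45 ± 0.15). GADD45B read 9.46 at -22 h in cow 1 and had a median of 5.67 there, so that its change was 0.98 in cow 1 and 5.27 to 5.95 in the other 3 cows.

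The list of adhesion molecules of endothelium and leukocytes, which also holds genes of clotting and fibrinolysis, had 5 of 22 members called, all higher. The adhesion molecules called were ICAM1, VCAM1, SELP and CD44, and the remaining call was that of a clotting factor. ICAM1, a ligand of leukocyte integrins, read 10.86, 11.19, 11.20 and 11.22 at 3 h, against 7.64, 7.96 and 8.18 at -22 h (3.22 ± 0.28, adjusted p = 4.3e-10). VCAM1 rose by 2.17 ± 0.37, SELP, the selectin of activated endothelium and platelets, by 1.88 ± 0.33, and CD44, the receptor of hyaluronan, by 1.85 ± 0.34 (adjusted p = 0.000149, 0.00024 and 0.00029). SELE read 2.76 to 2.94 at 3 h and 2.80 to 3.06 at -22 h, the bottom of its scale. CD83, a marker of activated antigen-presenting cells, read 5.61, 8.58, 9.51 and 6.52 at 3 h, against 2.34 to 3.56 at -22 h (4.77 ± 0.67, adjusted p = 5.6e-06).

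Most acute phase proteins are secreted by hepatocytes during inflammation. Of 22 genes measured on the positive list, 14 rose and none fell, with a median change of 0.82 beside -0.02 over all genes. The 14 include the intracellular metallothioneins MT1A and MT2A, the receptor CD14, and PTX3, which other cells make as well. The 4 largest rises of this list were those of MT1A, PTX3, SAA3 and MT2A. SAA3, a serum amyloid A, read 12.61, 11.43, 11.44 and 13.80 at 3 h, against 5.50, 8.08 and 8.73 at -22 h (4.61 ± 0.54, adjusted p = 2.0e-07). PTX3, a long pentraxin that binds microbes, read 7.70, 7.34, 7.15 and 7.94 at 3 h, against 2.16, 2.27 and 2.98 at -22 h (5.09 ± 0.58, adjusted p = 1.4e-07). A2M, a proteinase inhibitor, rose by 2.12 ± 0.24 (adjusted p = 1.1e-07). For SAA3, PTX3 and A2M the groups did not overlap.

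In HP, LBP, MT1A and MT2A the highest -22 h value was that of cow 1. HP, the haemoglobin-binding protein haptoglobin, read 15.81, 14.93, 15.57 and 15.21 at 3 h, while its -22 h values ran between 7.33 and 15.14 with a median of 12.24. Cow 1 had the 15.14, and its change was 0.67, beside 4.12, 8.13 and 4.61 in cows 3, 7 and 8. The fitted change of HP was 3.57 ± 0.94 (adjusted p = 0.016). Its call was lost without cow 3 (0.084), cow 7 (0.12) or cow 8 (0.12), and without the 3 h array of cow 1 (0.063) or cow 7 (0.055). It was not made with the 12 arrays of both hours (0.32) nor with the 8 paired arrays (0.27). LBP, which carries LPS to CD14, read 13.61 to 14.59 at 3 h and 9.36, 11.11 and 13.86 at -22 h, with changes of 0.73 in cow 1 and 2.46 to 3.60 in the other 3 (2.63 ± 0.46, adjusted p = 0.00021, and 0.067 with the 12 arrays). The metallothioneins MT1A and MT2A, which bind zinc and copper, showed the same order. MT1A read 14.68, 14.22, 14.57 and 14.15 at 3 h, against 12.81 in cow 1 and a median of 7.39 at -22 h (6.35 ± 0.70, adjusted p = 6.6e-08). MT2A read 13.64 to 14.28 at 3 h, against 13.16 in cow 1 and a median of 10.31 at -22 h (3.70 ± 0.52, adjusted p = 6.1e-06). Without the -22 h arrays of cows 1 and 7 the changes were 7.00 for MT1A, 4.12 for MT2A, 2.92 for LBP and 3.40 for HP, and all 4 were called (adjusted p = 2.4e-12, 6.1e-08, 2.9e-06 and 0.0050). Of 10 metallothioneins and zinc transporters, 5 rose and none fell.

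**Figure D3:**
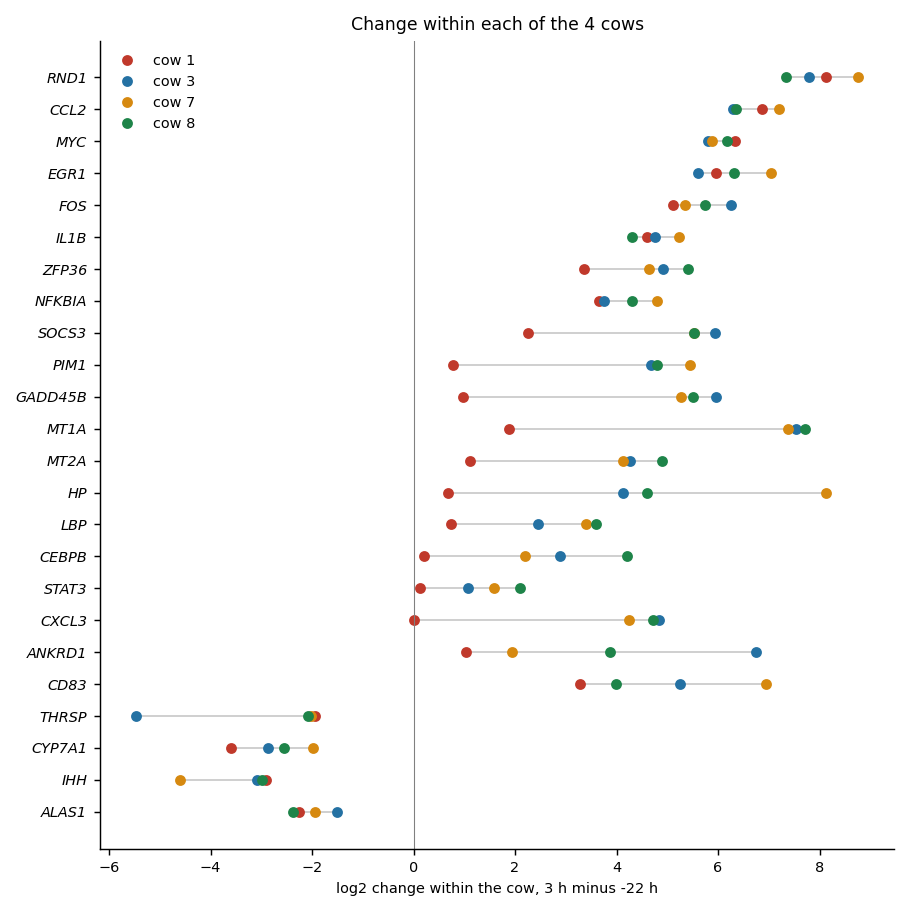
Log2 change between -22 h and 3 h within cows 1, 3, 7 and 8 (coloured points, horizontal axis) for 24 genes, with a grey line over the range of the 4 cows. The points lay close together for MYC and CCL2, whereas cow 1 had the smallest change in SOCS3, PIM1, GADD45B, MT1A, MT2A, HP, LBP, CEBPB, STAT3 and CXCL3.

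Not every secreted liver protein was called. Of 22 negative acute phase and carrier proteins, which decline during long inflammation, none was called by limma, none had an unadjusted p below 0.05, and none was called on the mean of the probe sets of a gene. Their changes lay between -0.14 and 0.36. ALB, serum albumin, changed by 0.04 ± 0.04, TTR, the carrier of thyroid hormone and retinol, by -0.11 ± 0.08 and MBL2, mannose-binding lectin, by 0.15 ± 0.18. The highest value of a 3 h array was 16.215 to 16.251, so that ALB (mean 16.18 at 3 h) lay near the top of the scale. A change there may not be read in full. ORM1, on the list of positive acute phase proteins, changed by 0.07 ± 0.16 (adjusted p = 0.85).

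The transcription factors of the hepatocyte moved in both directions. Of 27 measured C/EBP and hepatocyte factors, 3 rose and 3 fell. CEBPB, the C/EBP of the acute phase, read 8.52, 8.31, 8.24 and 8.20 at 3 h, against 8.32 in cow 1 and a median of 5.30 at -22 h (2.88 ± 0.42, adjusted p = 1.4e-05). Its second probe set gave 0.39, and with the 8 paired arrays its adjusted p was 0.28. CEBPD read 13.13 to 13.29 at 3 h and 10.74, 10.92 and 12.17 at -22 h (2.10 ± 0.41, adjusted p = 0.00071). NFIL3, a repressor at clock and C/EBP-like sites, rose by 2.77 ± 0.27 (adjusted p = 7.3e-09). CEBPA, the C/EBP of the resting liver, read 5.37, 6.41, 5.74 and 5.19 at 3 h, against 6.23, 7.58 and 8.16 at -22 h, and was lower in 4 of 4 cows with 1 overlapping value, that of cow 3 (-1.73 ± 0.28, adjusted p = 7.7e-05). HNF4A, which maintains hepatocyte identity, read 7.33, 8.47, 7.77 and 7.96 at 3 h and 9.07, 9.47 and 9.79 at -22 h, without overlap (-1.60 ± 0.31, adjusted p = 0.00075). NR2F2, an orphan nuclear receptor, fell by 1.32 ± 0.17 (adjusted p = 1.8e-06), and its other 2 probe sets gave -1.28 and -0.02.

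Regulators of signalling and transcription were among the genes that fell furthest. IHH, a hedgehog ligand, read 3.42, 3.73, 2.73 and 3.73 at 3 h, against 6.33, 6.72 and 7.51 at -22 h (-3.43 ± 0.27, adjusted p = 5.4e-11). ID3, an inhibitor of basic helix-loop-helix factors and a target of BMP signalling, read 3.61, 5.05, 4.74 and 4.13 at 3 h, against 7.23, 7.47 and 7.66 at -22 h (-3.08 ± 0.27, adjusted p = 4.2e-10). Both were separate in every cow. Its relative ID2 fell by 1.31 ± 0.27 (adjusted p = 0.0015), while ID1 changed by -0.19 ± 0.37 (adjusted p = 0.80). Over the 26 genes of the ID, BMP, TGF-beta and hedgehog list, 2 rose and 4 fell. SOX18, an endothelial transcription factor, fell by 1.72 ± 0.24, and the Notch ligand JAG1 rose by 1.14 ± 0.23 (adjusted p = 8.0e-06 and 0.0013). CITED2, a co-regulator that binds CBP and p300, read 5.18, 6.86, 6.79 and 7.26 at 3 h, against 8.32, 9.00 and 9.24 at -22 h (-2.35 ± 0.28, adjusted p = 2.0e-07). TCIM, a small regulator of Wnt signalling, fell by 2.52 ± 0.38 and ZBTB9, a zinc finger protein, by 1.70 ± 0.16 (adjusted p = 1.7e-05 and 3.6e-09). ACKR4, a scavenging receptor of chemokines, fell by 2.01 ± 0.33, TMEM86A by 1.94 ± 0.28, TAFA5 by 1.92 ± 0.35 and FIBIN by 1.84 ± 0.43, each without overlap between the groups.

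Single metabolic genes fell while most of their lists were not called. CYP7A1, which sets the pace of bile acid synthesis from cholesterol, read 8.62, 10.01, 11.23 and 10.87 at 3 h, against 12.22, 13.21 and 13.85 at -22 h (-3.0 ± 0.57, adjusted p = 0.00059). THRSP, a promoter of lipogenesis, read 6.79, 4.93, 8.44 and 8.85 at 3 h, against 8.74, 10.62 and 11.39 at -22 h, with a change of -5.47 in cow 3 and of -1.95 to -2.08 in the other 3 cows (-3.19 ± 0.63, adjusted p = 0.00082). The CYP7A1 groups were separate, and those of THRSP overlapped through cow 8. These were the only 2 calls among 33 lipogenesis and sterol genes, whose median change was -0.41. Of the 33, 10 had an unadjusted p below 0.05. ALAS1, the first enzyme of haem synthesis, read 10.71, 10.95, 10.19 and 9.53 at 3 h, against 11.91, 12.47 and 12.97 at -22 h (-2.11 ± 0.37, adjusted p = 0.00020).

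In the glycogen and gluconeogenesis list, 2 of 29 genes rose and 2 fell. PPP1R3C and PPP1R3B, subunits that target protein phosphatase 1 to glycogen, both fell. PPP1R3C read 11.27, 11.96, 10.98 and 11.82 at 3 h and 12.62 to 13.19 at -22 h (-1.39 ± 0.18, adjusted p = 8.5e-07), and PPP1R3B fell by 1.24 ± 0.29 (adjusted p = 0.0056), a call lost without cow 7 (0.063) or its 3 h array (0.059). PFKFB3, which makes the activator of glycolysis fructose 2,6-bisphosphate, read 11.04, 9.58, 9.83 and 10.35 at 3 h, against 5.89, 6.84 and 7.88 at -22 h (3.42 ± 0.46, adjusted p = 3.2e-06), while its other 2 probe sets gave -0.01 and 0.69. CREM, a factor of cAMP signalling, rose by 2.05 ± 0.37 through its brightest probe set (adjusted p = 0.00032), while its other 5 gave -0.03 to 0.84. PCK1 and G6PC1, enzymes of gluconeogenesis, did not pass, with -0.08 ± 0.30 for PCK1 and -0.41 ± 0.24 for G6PC1. With the 12 arrays of both hours, G6PC1 was called lower (adjusted p = 0.0085).

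A few metabolic genes rose. GNMT, which consumes methyl groups of S-adenosylmethionine, read 6.67, 7.71, 6.96 and 6.70 at 3 h, against 3.66, 3.81 and 4.46 at -22 h (3.11 ± 0.36, adjusted p = 1.7e-07). SDS, serine dehydratase, rose by 2.19 ± 0.47 (adjusted p = 0.0026), though not when cow 3 was left out (0.053). These were the only 2 called of 25 urea cycle and amino acid genes. ANGPTL4, an inhibitor of lipoprotein lipase, read 9.57 to 11.08 at 3 h and 6.88 to 7.51 at -22 h (3.22 ± 0.38, adjusted p = 1.9e-07), the only call among 22 genes of fatty acid oxidation and ketogenesis. ANGPTL4 is a glucocorticoid target too. Over the 18 measured glucocorticoid targets and receptor, 6 rose and 1 fell, and 2 of the 6 were MT1A and MT2A. CRISPLD2, a secreted LPS-binding protein, rose by 2.48 ± 0.34 (adjusted p = 4.6e-06), and the kinase SGK1 by 1.09 ± 0.25 (0.0048), a call that the mean of its probe sets (0.072), the fit without cow 7 (0.065) and the 12 arrays of both hours (0.15) did not make. FKBP5 and TAT, both classical targets, changed by 0.10 ± 0.30 and 0.21 ± 0.69 (adjusted p = 0.89 for each). FKBP5 lay near the bottom of the scale at both hours (mean 2.58 at 3 h and 2.49 at -22 h), where a change may not be read. NR3C1, the receptor, fell by 0.86 ± 0.25 (adjusted p = 0.032). Its adjusted p was 0.057 to 0.23 without cow 2, 5, 6, 7 or 8, 0.057 to 0.12 without the 3 h array of cow 1, 7 or 8, 0.055 to 0.067 without the -22 h array of cow 2, 7 or 8, and 0.14 with the 12 arrays of both hours. Of 10 circadian clock genes 3 rose, namely NFIL3, BHLHE40 and the deadenylase NOCT (2.77 ± 0.26).

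Most members of the stress, transporter and matrix lists were not called, though the share that rose was above the 4.47% of all genes in each. Of 25 genes of the ATF4 and endoplasmic reticulum stress list, 5 rose and 1 fell. TRIB1, a pseudokinase that directs C/EBP proteins to degradation, read 11.04, 10.46, 10.69 and 10.93 at 3 h, against 7.13, 7.75 and 8.18 at -22 h (3.02 ± 0.32, adjusted p = 2.5e-08), and HSPA5, the chaperone of the endoplasmic reticulum, rose by 1.36 ± 0.28 (adjusted p = 0.0013). Heat shock proteins were called in 6 of 20 cases, 5 of them higher. HSPH1 rose by 2.48 ± 0.62 (adjusted p = 0.011) and BAG3 by 2.10 ± 0.50 (0.0066). The other 3 probe sets of HSPH1 ranged between 0.20 and 3.52. The calls of HSPH1 and BAG3 were lost without cow 3 (0.075 and 0.055), and that of HSPH1 also without the 3 h array of cow 1 (0.051). SLCO4A1, an organic anion transporter, read 11.11, 9.98, 10.20 and 10.53 at 3 h, against 2.22, 2.90 and 5.75 at -22 h (7.35 ± 0.40, adjusted p = 1.2e-14). SLC38A2, a neutral amino acid transporter, rose by 1.48 ± 0.24 (adjusted p = 6.8e-05). In the transporter list 3 of 24 rose and 1 fell. In the matrix and protease list, 5 of 27 rose and none fell. ADAMTS4, which cleaves aggrecan, read 8.05, 7.30, 7.68 and 8.64 at 3 h and 2.03 to 2.20 at -22 h (5.78 ± 0.65, adjusted p = 9.5e-08), the matrix glycoprotein TNC rose by 2.00 ± 0.34 (0.000149, with -0.01 for its second probe set) and the collagen chaperone SERPINH1 by 1.70 ± 0.27 (4.6e-05).

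Among the genes that were near the bottom of the scale at -22 h, the cows differed widely in ANKRD1, a nuclear ankyrin repeat protein. It read 3.79 and 4.32 at 3 h in cows 1 and 7, and 9.09 and 6.98 in cows 3 and 8, against 2.34 to 3.12 at -22 h. All 4 values lay above the -22 h range, with a change of 3.44 ± 0.91 (adjusted p = 0.017). It was not called without cow 3 (0.20) or cow 8 (0.084), nor without the 3 h array of cow 3 (0.15) or cow 8 (0.076). At 6 h the change of ANKRD1 was 8.37 and at 9 h 10.27. Over the 409 genes that rose, the median change within a cow was 0.80, 1.03, 1.45 and 1.30 in cows 1, 3, 7 and 8, and cow 1 had the smallest of the 4 changes in 185 genes.

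When the 8 arrays of these 4 cows were fitted alone as pairs, 44 of the genes called above did not pass, with adjusted p between 0.0502 and 0.46. Among those given above with large changes, the adjusted p was 0.14 for MT1A and MT2A, 0.17 for GADD45B and LBP, 0.18 for PIM1, 0.26 for CXCL3, 0.080 for SOCS3 and 0.22 for THRSP. The others lost were ACKR4, ANKRD1, CD14, CD83, CEBPB, CEBPD, CITED2, CLEC4G, CREM, CXCL5, FIBIN, GRO1, HNF4A, HP, HSPA5, ID2, IFNAR1, IL10, IL1R1, INHBA, JUNB, MAFG, MCL1, NFKB2, NR2F2, NR3C1, PFKFB3, PPP1R3B, SDS, SGK1, SOX18, STAT3, TAFA5, TNC, TNFRSF1A and TOB1. None of the 44 changed its direction.

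In the remaining lists, too, most members were not called. In ribosome biogenesis 2 of 34 genes rose and none fell, in polyamine and nucleotide synthesis 2 of 21 rose and 1 fell, and of 20 MAP kinases and dual specificity phosphatases 3 rose and 1 fell. Of 22 P450 and conjugation enzymes none rose and 1 fell. In the growth hormone, IGF and prolactin list 4 of 26 rose and 2 fell. The shares called over all genes, given above, were 4.47% for rises and 2.57% for falls.

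**Figure D4:**
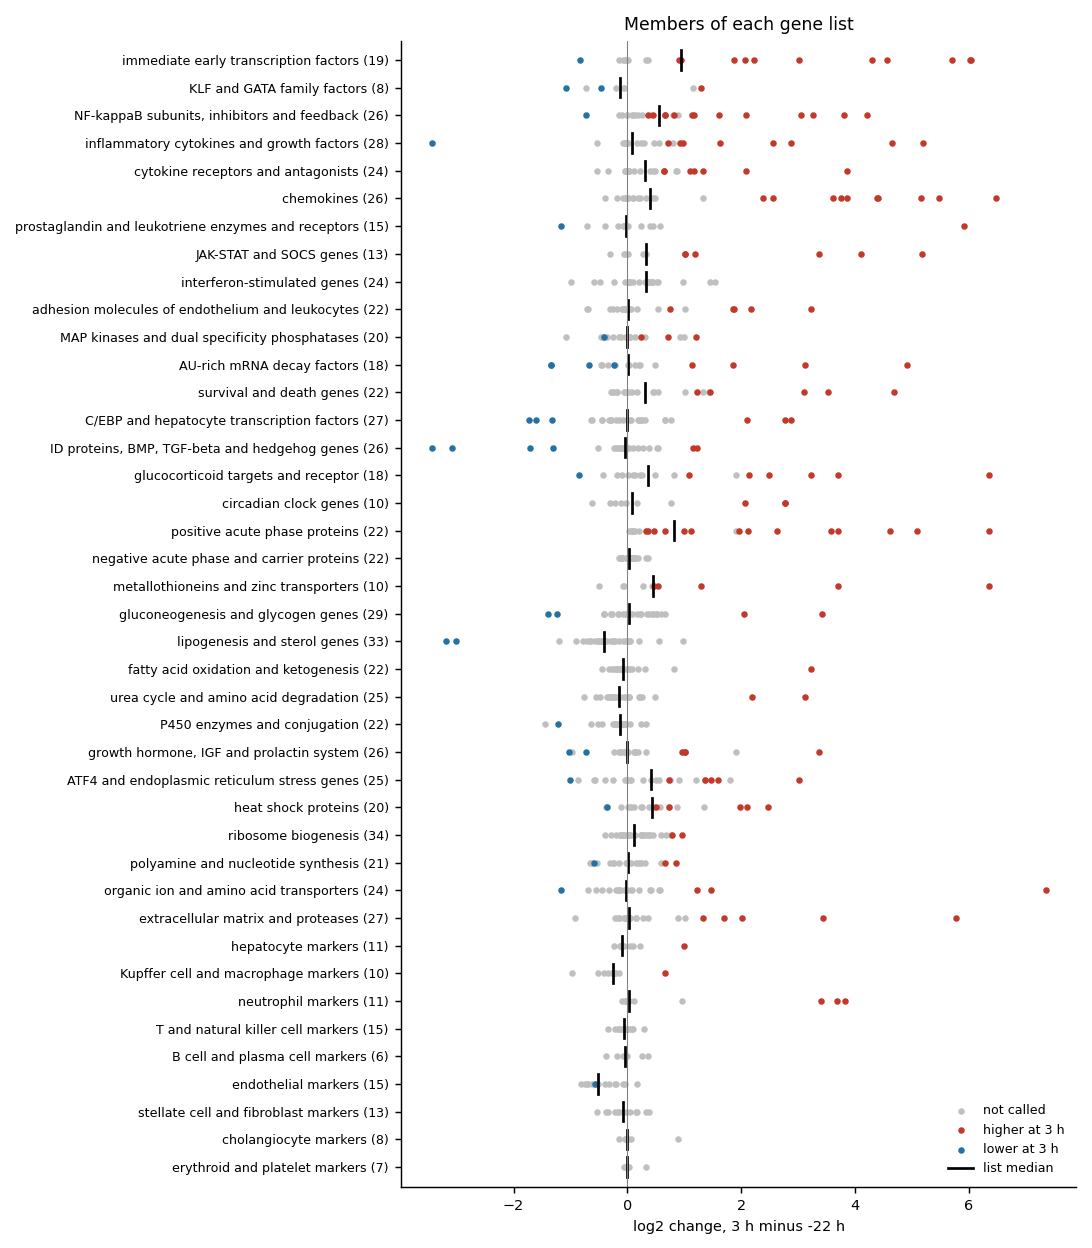
Log2 change at 3 h of every measured member of 41 gene lists (points, horizontal axis), with the number of measured members in parentheses, members called higher in red, called lower in blue, others in grey and the list median as a black bar. Chemokines, immediate early factors and positive acute phase proteins held 10, 11 and 14 rises, while the lists of negative acute phase proteins and of interferon-stimulated genes held no call.

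A biopsy holds several cell types, and in bulk tissue fewer cells of a type and less RNA per cell cannot be told apart. ALB, the defining hepatocyte marker, read 16.13 to 16.21 at 3 h and 15.87 to 16.22 at -22 h, and 1 of 11 hepatocyte markers was called. These ALB values lay near the top of the scale, where a change may not be read in full. The neutrophil list gave 3 rises among 11 measured members, which were the S100 proteins. S100A8 read 10.51, 10.89, 10.08 and 9.51 at 3 h, against 4.85, 6.55 and 7.31 at -22 h (3.82 ± 0.42, adjusted p = 5.6e-08). S100A12 rose by 3.69 ± 0.42 and S100A9 by 3.39 ± 0.43 (adjusted p = 1.3e-07 and 9.3e-07). These 3 genes are transcribed in neutrophils and monocytes. The summed level of the 11 neutrophil markers ran from 10.62 to 11.90 in log2 at 3 h and from 8.23 to 9.01 at -22 h, and 7 of the 11 had no -22 h array above 5. The granule genes MPO, ELANE, CAMP, MMP9 and PGLYRP1 lay at or near the bottom of the scale, between 1.93 and 2.60, on every array of both hours. LTF, another granule protein, changed by 0.11 ± 0.58 (adjusted p = 0.94), and CXCR1, the IL-8 receptor of neutrophils, by 0.96 ± 0.64 (0.48), with 5.09 in cow 3 and 2.30 to 3.04 in the other 3 cows at 3 h, against 2.11 to 2.49 at -22 h. Whether neutrophils had a part in the rises of the chemokine, adhesion and cytokine genes was not tested.

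Markers of other cells gave almost no call. Of 10 Kupffer cell and macrophage markers, CD14 alone rose, and the median change was -0.26. Of 15 endothelial markers, none rose and 1 fell, CLEC4G, a lectin of sinusoidal endothelium (-0.58 ± 0.18, adjusted p = 0.046, and 0.17 with the cow as a replicate block). The median of that list was -0.51, and 9 of its members had an unadjusted p below 0.05. Its summed level ran from 11.30 to 11.54 at 3 h and from 11.37 to 12.40 at -22 h. The call of CLEC4G was lost without any 1 of cows 1 to 7 (0.067 to 0.12), without the 3 h array of cow 1, 3 or 7 (0.071 to 0.21) and without the -22 h array of cow 2, 4, 5, 6 or 7 (0.064 to 0.091), and it was not made with the 12 arrays of both hours (0.20). No member of the lists of T and natural killer cells (15 measured), B and plasma cells (6), stellate cells and fibroblasts (13), cholangiocytes (8) and erythroid cells and platelets (7) was called by limma. In the T cell list 1 gene had an unadjusted p below 0.05 and in the other 4 none had. None of the members of these 5 lists was called on the mean of the probe sets of a gene. In the order given, 10, 3, 3, 3 and 7 of their members had no -22 h array above 5. A fall in such genes may not be read.

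Set beside the later hours, which were compared with the same -22 h arrays, most of the genes reached their furthest mean later than 3 h. The means at 3, 6 and 12 h are of cows 1, 3, 7 and 8, and those at 9 and 48 h of cows 1 to 8. The hours thus do not compare the same set of animals. Of the 409 genes that rose, 88 had their highest mean after LPS at 3 h, 179 at 6 h, 74 at 9 h, 62 at 12 h and 6 at 48 h. Of the 235 that fell, 54 had their lowest mean at 3 h, 117 at 6 h, 39 at 9 h, 22 at 12 h and 3 at 48 h. IL1A and CCL8 were past their highest mean by 6 h. IL1A changed by 5.19 at 3 h, 0.55 at 6 h and -0.10 at 9 h, and CCL8 by 5.47, 3.01 and 1.93 at the same hours. PTX3 went on to 8.86 at 6 h, and S100A8 to 6.53 at 12 h. MT1A, SAA3 and HP stayed high, with 5.97, 5.46 and 4.01 at 48 h.

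CYP7A1, THRSP and ALAS1 were lower at 6 h than at 3 h. CYP7A1 changed by -3.0 at 3 h, -10.45 at 6 h, -10.09 at 9 h and 0.41 at 48 h. THRSP changed by -3.19 at 3 h and -8.05 at 6 h, and ALAS1 by -2.11 and -6.34. PCK1, not called at 3 h, changed by -2.97 at 6 h, and PPP1R3B by -5.54. KLF11 changed by -1.08 at 3 h and -5.09 at 9 h. ID3 ran the other way, with -3.08 at 3 h, -1.34 at 6 h and 0.15 at 9 h. At 48 h, 30 of the 409 genes that rose were still at least 1 unit above -22 h, and 11 of the 235 that fell at least 1 unit below it.

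**Figure D5:**
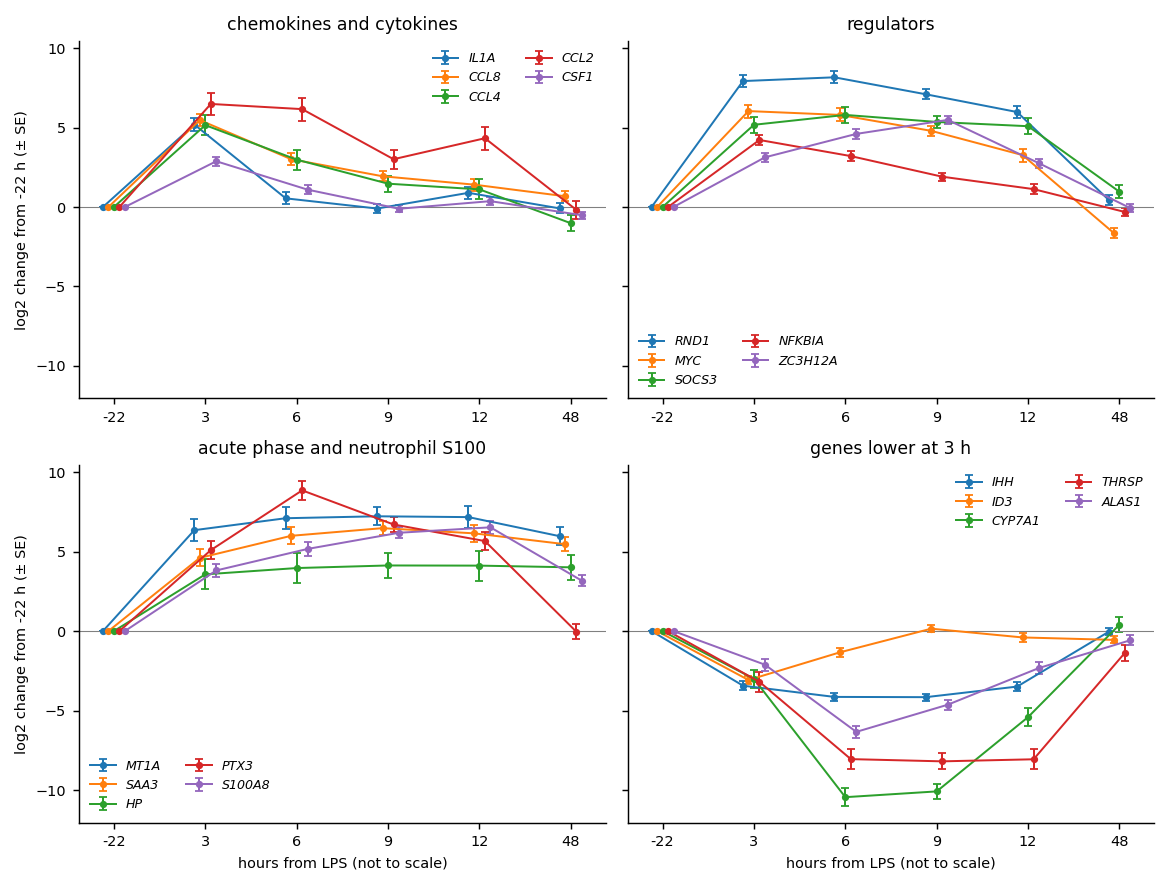
Log2 change from -22 h (± SE of the fit, vertical axis) of 20 genes at 3, 6, 9, 12 and 48 h after LPS, in 4 panels, with hours in order but not to scale. IL1A and CSF1 were back near 0 by 9 h, RND1 and SOCS3 stayed above 5 until 12 h, MT1A, SAA3 and HP stayed high at 48 h, and CYP7A1 and THRSP were lower at 6 h than at 3 h.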

How the data were processed

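Liver RNA was hybridised to Affymetrix bovine arrays, 1 array per cow and hour. The authors normalised the arrays with GCRMA and deposited log2 values, which were used unchanged. Probe sets were named through the platform annotation: 13292 named 1 gene, 10724 none and 86 several, and 811 of 1077 symbols in the gene lists were matched. No coordinates are given, since the build was not named.

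With limma 3.58.1 (R 4.3.3), 1 mean per hour was fitted over all 36 arrays without a cow term (the study's methods name limma and do not say whether the cow entered the model), and the contrast of 3 h minus -22 h was tested over 24128 probe sets with Benjamini-Hochberg and Bonferroni adjustment. The fit was tested on simulated data. Arrays were paired by animal identity, not by the replicate numbers of the titles, which name different cows at the 2 hours. Deviations from the hour means correlated by 0.34 to 0.51 within a cow (mean 0.45), against a mean of -0.15 between cows. As deviations cancel over the cows of an hour, the mean between cows follows from that within cows and adds no evidence. The estimate by limma of the correlation between arrays of 1 cow, over all 36 arrays, was 0.11. P-values rest on the spread of arrays around their hour means, pooled over all 36 arrays. The arrays were treated as independent, although each cow gave more than 1. With 4 and 8 arrays, their number limits the precision.

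Genes named are the 14 largest rises and falls with the same sign in 4 cows, up to 4 called members and the brightest member of each list, and genes named in the study's paper. A2M, CAMP, CCL3, CD83, CXCL2, CXCL3, CXCL5, CXCL8, CXCR1, ELANE, FKBP5, HNF4A, IER3, INHBA, JAG1, JUNB, LBP, MAFF, MAFG, MMP9, MPO, NFKB1, NR2F2, NR3C1, PGLYRP1, RCAN1, SELE, SGK1, TAT, TRAF1 and TTR fall outside this rule and were chosen after their values were seen. The members and lists were chosen with earlier results of these data known. Gene list changes are described by counts and medians, without a test of the list.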

Additional observations from a re-analysis of the deposited data

Results flagged for a closer look

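In 276 sets of values (the 3 h or the -22 h arrays, for the array medians, the hybridization controls and each gene given above), 35 had 1 array that lay far from the others for the range of its group by Dixon's criterion. Chance gives about 1 in 20 groups. The -22 h array of cow 1 was that array in 17 of them.

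The -22 h array of cow 1 was the highest of its group in SLCO4A1 (5.75), SOCS3 (6.12), PIM1 (9.89), GADD45B (9.46), CXCL3 (6.91), GRO1 (11.79), CEBPD (12.17), CISH (8.37), BCL3 (5.83), CREM (6.50), MCL1 (11.30), SGK1 (12.33), BAG3 (11.47) and IL1A (3.59). It was the lowest in CCL4 (3.57), CRISPLD2 (3.50) and ELANE (2.06). The -22 h array of cow 7 had the lowest array median (4.15) and the highest mean of the bacterial hybridization controls (13.4), with the lowest ALB (15.87) and the highest S100A9 (4.63).

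Among the other -22 h arrays, cow 3 was highest in CCL20 (2.33), GNMT (4.46), OLR1 (2.88) and ZC3H12A (3.44), cow 2 in NFKBIE (3.19) and cow 8 in INHBA (7.50), while cow 8 was lowest in TLR4 (2.39). At 3 h, cow 1 was lowest in CCL3 (8.00) and ICAM1 (10.86) and highest in SELP (10.01). Cow 3 was highest in ID2 (10.11) and lowest in IL6 (2.40) and CAMP (2.37), and cow 7 was lowest in CD14 (12.16).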

How the results depend on the processing

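None of the 113 called genes given above reversed its direction under any alternative, and 59 of them kept their call under every alternative. Genes that were not called, with changes near 0, did change sign in places. Of the 113, 11 lost their call with the 12 arrays of both hours and 44 with the 8 paired arrays, while G6PC1 was called with the 12 arrays. Array weights gave 3111 changed probe sets and 458 under the stricter threshold, and the share of higher ones was 47.3%, against 59.3% in the fit reported. The weight was 0.2955 for the 3 h array of cow 3, against 1.298 to 2.085 for the other 3 h arrays. It was 0.2767 and 0.1915 for the -22 h arrays of cows 1 and 7, against 0.9113 to 1.818 for the other -22 h arrays. With the 12 arrays of both hours alone, 125 probe sets passed the stricter threshold. The 8 arrays of the 4 cows gave 335 changed probe sets and 5 under the stricter threshold as pairs with the cow as a replicate block (75.5% of the changed ones higher), and 354 and 26 without a cow term (77.4%). These fits use fewer arrays. Over all 36 arrays, the cow as a fixed replicate block gave 1474 and 240, and ended the calls of PTGS1 and CLEC4G alone among the 113. With other thresholds, 324 probe sets passed Bonferroni at 0.05, 678 had changed at least 2-fold as well, and 837 passed Benjamini-Hochberg at 0.01. With 1 cow or 1 array left out, the changed probe sets ranged from 938 (without cow 8) to 1875 (without the -22 h array of cow 1), and those under the stricter threshold from 182 to 308. Without the -22 h arrays of cows 1 and 7, a choice made after seeing the data, 1919 had changed, 50% of them higher. The cause of these differences was not tested. Of 50 list counts above 0, 48 stayed within 1.5 times under the fixed replicate block and 47 with each array centred on its median, against 15 with the 8 paired arrays, 32 with the 12 arrays and 32 with array weights. The 14 rises on the positive acute phase list were 7 with the 12 arrays and 3 with the 8 paired ones. Signal near the bottom of the scale limits changes in 2954 of 9155 genes that no -22 h array had above 5.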
